A study of Mus musculus with 6 samples.

Results

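The nuclear genes of the mitochondrial respiratory chain and ATP synthase were followed in liver of 6 male mice on a high-fat diet. Members were taken by gene symbol from the GENCODE M21 annotation: protein-coding genes whose symbols begin with Ndufa, Ndufb, Ndufc, Ndufs or Ndufv and a digit, Sdha to Sdhd, and those beginning with Uqcr, Cox4 to Cox8 or Atp5. The rule gave 85 of 35082 genes, 37 for complex I, 4 for complex II, 8 for complex III, 18 for complex IV and 18 for ATP synthase, and 79 of them had enough counts to be tested among 12497 genes. The symbol rule leaves out Ndufab1 and Cyc1, and also Atpif1 and Usmg5, which later nomenclature moves into the Atp5 series.

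The study asked how liver expression differs when the stress granule protein gene G3bp1 is deleted in hepatocytes of mice on this diet. All animals were homozygous for a floxed G3bp1 allele (genotype G3BP1f/f). The 3 control livers (WT below, as labelled) carried no Cre, and the 3 livers labelled as knockouts (LKO below) also carried Alb-cre, a Cre recombinase driven by the albumin promoter and therefore aimed at hepatocytes. Mice entered the diet at 8 weeks of age and stayed on it for 20 weeks. RNA was taken from whole liver and so includes cells that Alb-cre does not target, and with bulk RNA fewer cells of a type cannot be told apart from less RNA per cell.

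The respiratory chain passes electrons from NADH and succinate to oxygen and pumps protons across the inner mitochondrial membrane, and ATP synthase uses the return of those protons to make ATP. Complex I takes electrons from NADH, complex II from succinate, complex III hands them to cytochrome c and complex IV reduces oxygen. All but complex II combine nuclear subunits with a few encoded in mitochondrial DNA, so that 2 genomes must supply each complex. In liver these complexes serve the oxidation of fatty acids, and the promoters of many of the nuclear subunit genes are known for sites of NRF1, GABPA (also called NRF2), ERRalpha and YY1.

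To show what these promoters look like, 1 is printed for each complex: that of the tested member with the smallest unadjusted p among those with such letters in the 250 bases before the RefSeq transcription start. Each runs 5′ to 3′ on the strand of its gene, which is the minus strand for all 5, on GRCm38.p6. Capitals mark exact matches to the letters used for NRF1, which are GCGCA, any base and GCGC, or to CCGGAAG, used for GABPA, which reads CTTCCGG on the other strand. The windows are chr16:37654369-37654618 for Ndufb4 (complex I), chr13:74350241-74350490 for Sdha (complex II), chr4:116075071-116075320 for Uqcrh (complex III), chr5:115348959-115349208 for Cox6a1 (complex IV) and chr9:44920743-44920992 for Atp5l (ATP synthase).
Ndufb4: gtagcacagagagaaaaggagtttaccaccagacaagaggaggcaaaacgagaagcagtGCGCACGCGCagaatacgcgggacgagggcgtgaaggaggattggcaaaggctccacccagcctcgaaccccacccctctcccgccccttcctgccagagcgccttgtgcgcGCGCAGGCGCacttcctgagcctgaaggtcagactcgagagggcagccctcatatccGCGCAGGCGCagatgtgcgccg
Sdha: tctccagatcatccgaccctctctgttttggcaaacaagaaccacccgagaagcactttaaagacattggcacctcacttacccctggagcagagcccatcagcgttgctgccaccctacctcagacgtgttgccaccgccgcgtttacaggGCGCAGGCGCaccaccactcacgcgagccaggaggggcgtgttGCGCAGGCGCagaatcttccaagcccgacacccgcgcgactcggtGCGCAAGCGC
Uqcrh: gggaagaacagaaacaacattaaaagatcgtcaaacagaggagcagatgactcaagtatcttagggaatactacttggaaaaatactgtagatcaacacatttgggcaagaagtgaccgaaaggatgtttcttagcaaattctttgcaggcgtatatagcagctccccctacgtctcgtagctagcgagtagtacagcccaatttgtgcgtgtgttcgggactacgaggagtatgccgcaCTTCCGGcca
Cox6a1: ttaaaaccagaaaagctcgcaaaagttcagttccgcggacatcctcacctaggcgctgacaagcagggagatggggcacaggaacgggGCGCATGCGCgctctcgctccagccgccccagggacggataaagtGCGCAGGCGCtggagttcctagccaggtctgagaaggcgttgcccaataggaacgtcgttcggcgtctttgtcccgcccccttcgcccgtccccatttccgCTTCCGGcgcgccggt
Atp5l: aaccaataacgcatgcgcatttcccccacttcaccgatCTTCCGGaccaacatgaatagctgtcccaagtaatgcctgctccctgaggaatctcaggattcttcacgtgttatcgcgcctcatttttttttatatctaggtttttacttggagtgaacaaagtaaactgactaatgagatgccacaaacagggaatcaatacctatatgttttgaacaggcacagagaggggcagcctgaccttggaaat

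The Ndufb4 and Sdha promoters each held 3 NRF1 letter matches, beginning 191, 79 and 22 bases before the start in Ndufb4 and 98, 55 and 10 bases before it in Sdha. Cox6a1 held matches for both factors, with NRF1 letters beginning 162 and 117 bases and GABPA letters 16 bases before the start, and Uqcrh held a single GABPA match that began 10 bases before it. Atp5l held GABPA letters 212 bases before and, outside the printed stretch, 25 bases after its start. A RefSeq promoter window, 250 bases before to 50 after the start, was found for 68 of the 85 members. On either strand, NRF1 letters occurred in 25.0% of these genes and in 7.17% of 17491 protein-coding genes with a window. GABPA letters occurred in 23.5% and 12.9%, TCAAGGTCA (ERRalpha) in 2.94% and 0.38%, and the YY1 letters, AANATG followed directly by GCGGC, in 5.88% and 1.63%. Of the members, 47.1% held at least 1 of the 4, against 20.0% of protein-coding genes, and a window can hold more than 1. A match describes letters in a window and not a bound site. Within the tested members, those with NRF1 letters had a median log2 difference between groups of -0.40 and those without had -0.46, whereas the medians were -0.49 with and -0.42 without GABPA letters.

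The libraries held 20899135 to 21750007 estimated counts each, of which the members took 1.36% to 1.78% in the controls and 1.78%, 1.32% and 1.17% in LKO replicates 1 to 3. Levels of single genes are given in CPM, counts scaled to library size. They are scaled with TMM factors, which ran from 0.84 to 1.00 in the controls and from 1.07 to 1.14 in the LKO libraries. G3bp1 itself had 44.1, 34.8 and 40.5 CPM in WT replicates 1 to 3 and 44.0, 30.0 and 31.5 CPM in LKO replicates 1 to 3, so its level did not separate the groups and LKO replicate 1 lay at the control level (edgeR adjusted p 0.91). The groups are therefore called by their labels. LKO replicates 2 and 3 also stood apart in the share of transcripts with a count, 36.3% and 37.8% against 30.2% to 31.2% in the other 4 libraries. Hepatocyte markers, the defining genes of the tissue, were abundant in every library, with sums of 88233, 93475 and 119246 CPM in WT replicates 1 to 3. In LKO replicates 1 to 3 they summed to 106752, 104610 and 61976 CPM, so that LKO replicate 3 was the lowest of all. Of the 8 markers 4 lay below 0, with a median log2 difference of -0.06.

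As a group, the subunit genes lay lower in the LKO livers, but none passed the test. Of the 79 tested members, 73 had a log2 difference (LKO minus control) below 0, where 48.4% of all genes did, and the median was -0.44 against 0.01 over all genes. Members are short, with a median main transcript of 704 bases against 2694 over all genes, and among other protein-coding genes of 601 to 800 bases 84.9% lay below 0. With the edgeR quasi-likelihood test and Benjamini-Hochberg adjustment over all genes, 0 members were called (0% of all genes) and the smallest adjusted p was 0.85. An unadjusted edgeR p under 0.05 was found for 8 members, all lower, where 1.9% of all genes were lower and 2.65% higher at that level. DESeq2 also called 0 members, where it called 0.088% of all genes, and limma voom called 0 genes in all. In 13 members every LKO library lay below every control, 16.5% of those tested, which held for 4.55% of all genes and for 14.5% of other protein-coding genes of 601 to 800 bases. In 0 members did every one lie above, against 4.79% of all genes. The plot of log2 differences shows 78 of the tested members with their standard errors.

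**Figure D1:**
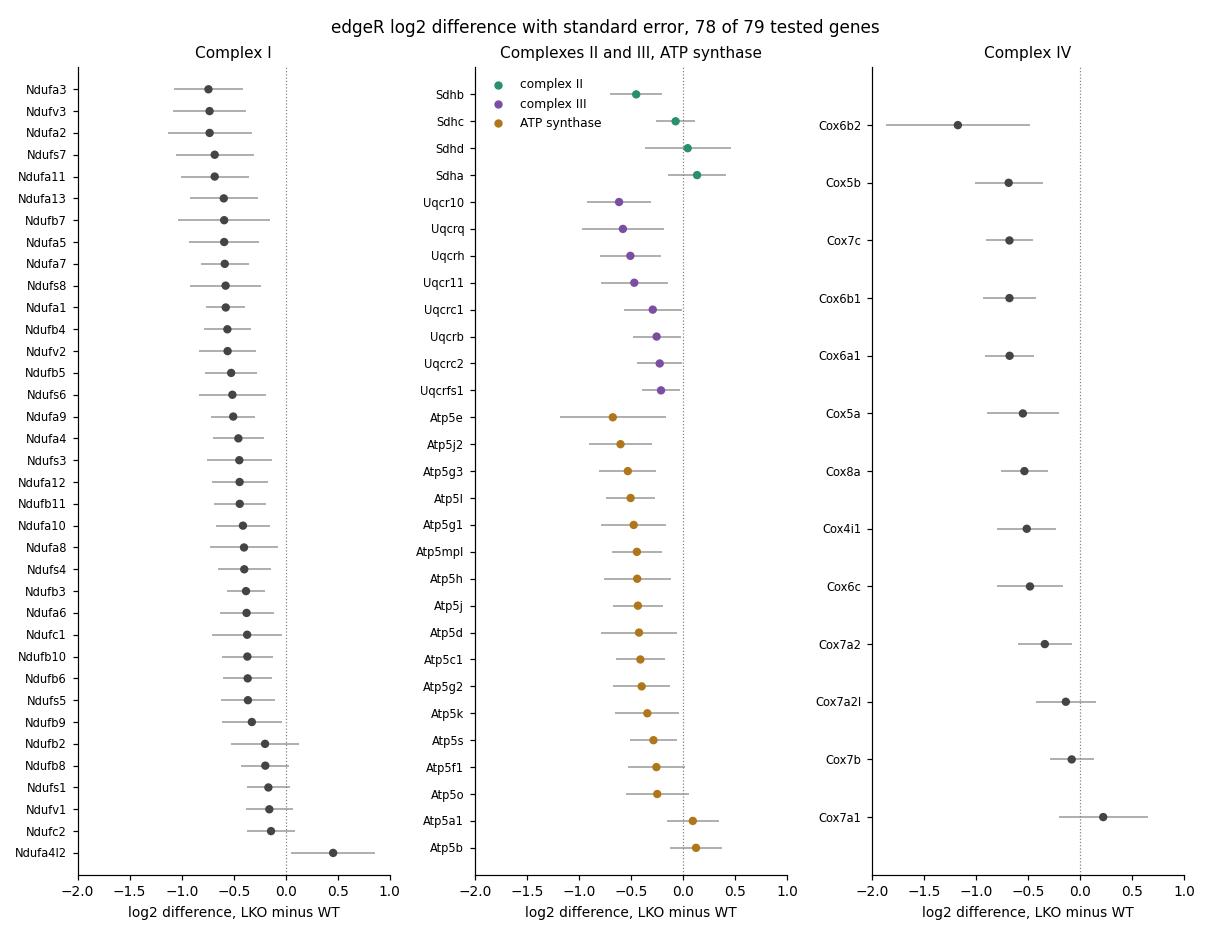
Each point is 1 tested member, ordered within its complex by the edgeR log2 difference, LKO minus control (WT), on the x axis, and bars are standard errors. Of the 78 points 72 lie left of 0, and the 6 to the right are Ndufa4l2, Sdhd, Sdha, Atp5a1, Atp5b and Cox7a1.

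Most of this difference came from 2 of the 3 LKO libraries. In LKO replicate 1, 54 of the 79 tested members lay within the range of the controls, 16 below it and 9 above it, and the median level was 0.97 of the control mean. Replicate 2 lay below every control for 61 members, with a median of 0.69 of the control mean, and replicate 3 for 65 members, with 0.56. Over all genes, 26.1% lay below every control in replicate 2 and 25.6% in replicate 3. Other protein-coding genes of up to 600 bases made the same step, with median deviations from the mean of the 6 libraries of 0.33, 0.090 and 0.30 in the controls and 0.27, -0.35 and -0.60 in LKO replicates 1 to 3. For 61 of the 79 members the lowest of the 6 libraries was LKO replicate 3. With LKO replicate 1 left out, fewer libraries had to be separated, and 60 members lay below every control, as did 17.3% of all genes. In that comparison 53 members, and 8.55% of all genes, were lower with an unadjusted edgeR p under 0.05, 0 members were called, and the members' median was -0.68. Without replicate 3 it was -0.28. Without control replicate 1, 26 members lay lower and 1 higher without overlap, where 28.2% of all genes did not overlap in either direction. Without control replicate 2, 30 members lay lower and 0 higher, where 17.8% of all genes did not overlap. With LKO replicates 2 and 3 both left out, the median of the members was -0.054. G3bp1 was likewise at the control level in replicate 1 and at 30.0 and 31.5 CPM in replicates 2 and 3, and its part in the members' values was not tested.

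**Figure D2:**
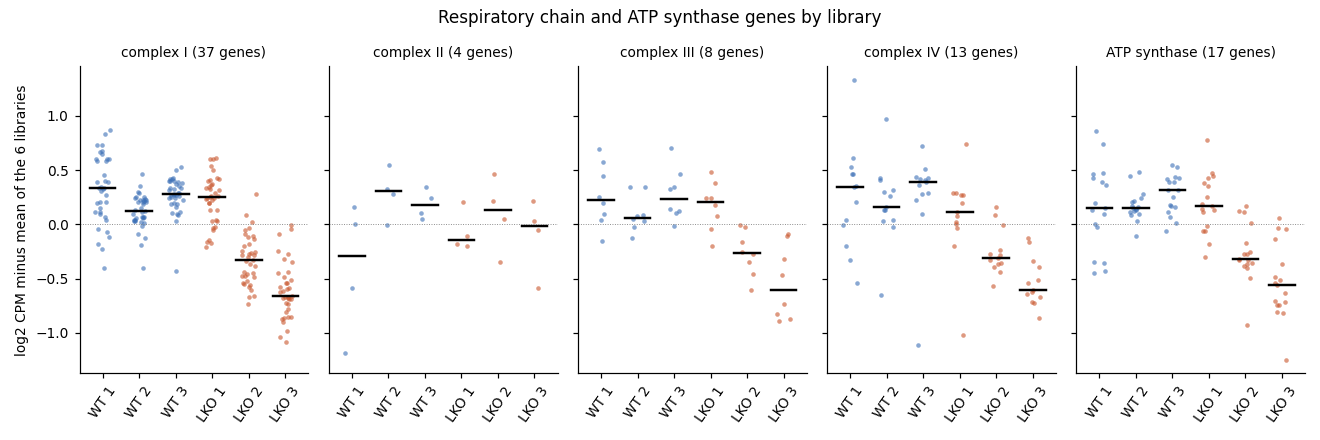
Each point is 1 tested member in 1 library, as its log2 CPM minus its mean over the 6 libraries (y axis), by complex, with control libraries WT 1 to WT 3 and LKO libraries LKO 1 to LKO 3 on the x axis and black lines at the medians. In complex I the medians are 0.33, 0.12 and 0.27 in the controls and 0.25, -0.33 and -0.66 in the LKO libraries, and complex II shows no such step.

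Complex I, the NADH dehydrogenase, had 36 of 37 members below 0 and a median log2 difference of -0.44. The summed level of its genes was 5435, 4748 and 5255 CPM in WT replicates 1 to 3 and 4997, 3444 and 2817 CPM in LKO replicates 1 to 3. Replicate 1 thus lay within the controls, and replicates 2 and 3 below them. The 28 accessory subunits, which surround the catalytic core and are needed for its assembly and stability, were all below 0 with a median of -0.44, and the 7 core subunits were too, with a median of -0.45.

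In what follows a bracket after the CPM values gives the log2 difference and its SE. Ndufa1, a small membrane accessory subunit, had 71.1, 57.1 and 71.6 CPM in WT replicates 1 to 3 and 48.2, 43.1 and 42.7 CPM in LKO replicates 1 to 3. Here all 3 LKO libraries, the first included, lay below every control, with a log2 difference of -0.58 and a standard error (SE) of 0.19 (edgeR unadjusted p 0.015, adjusted 0.85). Ndufa7, an accessory subunit, had 162, 154 and 166 CPM in the controls and 133, 107 and 81.3 CPM in the LKO libraries, again without overlap. Ndufb4, of the membrane arm, had 122, 84.8 and 92.7 CPM against 78.6, 68.6 and 56.0 CPM. Ndufa9, which lies near the ubiquinone site, had 146, 141 and 129 CPM against 118, 89.9 and 85.3 CPM. These 4 genes had log2 differences between -0.59 and -0.50, and Ndufb3, named here after its values were seen, was the fifth complex I member without overlap (-0.38).

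The most abundant complex I transcripts per length were Ndufa4, at a mean of 890 TPM, the deposited level per transcript length, and Ndufa3, at 874 TPM. Ndufa4, which is now counted with complex IV by its place in the enzyme, had 327, 413 and 454 CPM in the controls and 328, 307 and 235 CPM in the LKO libraries, and its lowest control lay within the range of the LKO libraries. Ndufa3 had 344, 218 and 274 CPM against 249, 137 and 114 CPM, with replicate 1 again among the controls. Their log2 differences were -0.46 and -0.74, the second being the lowest in complex I.

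Among the core subunits, which carry the flavin and the iron-sulphur clusters, the differences were unequal. Ndufs7, at the ubiquinone site, had 195, 110 and 132 CPM in the controls and 144, 68.5 and 60.0 CPM in the LKO libraries (-0.68, SE 0.37). Ndufs8, an iron-sulphur subunit of the same arm, had -0.58 and Ndufv2, an iron-sulphur subunit of the NADH-oxidizing module, had -0.56. Ndufs3 had -0.45, with 174 CPM in LKO replicate 1 inside the control range of 138 to 204 CPM. By contrast Ndufs1, an iron-sulphur subunit (-0.17), and Ndufv1, which binds the flavin and NADH (-0.16), lay nearer to 0. Ndufv1 had 86.9, 115 and 113 CPM in the controls and 113, 90.8 and 78.8 CPM in the LKO libraries, with LKO replicates 1 and 2 inside the control range. The main transcripts of Ndufs1 and Ndufv1 are 2661 and 1661 bases long and those of Ndufs7, Ndufs8 and Ndufv2 are 758, 780 and 927 bases.

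Complex II, succinate dehydrogenase, which also works in the citric acid cycle and has no subunit encoded in mitochondrial DNA, showed no common direction. Its genes are long for this set, with a median main transcript of 2065.5 bases against 704 bases over all tested members. Sdha, the flavoprotein that oxidizes succinate, had 169, 309 and 264 CPM in the controls and 225, 295 and 296 CPM in the LKO libraries (0.14, SE 0.28). Sdhb, the iron-sulphur subunit, had 195, 218 and 206 CPM against 201, 137 and 116 CPM (-0.45, 0.25). For Sdhb alone of the 4, LKO replicates 2 and 3 both lay below every control. The membrane anchor Sdhc had 137, 136 and 147 CPM against 127, 141 and 131 CPM (-0.07, 0.19). Its partner Sdhd had 38.7, 129 and 112 CPM against 76.8, 122 and 89.9 CPM (0.05, 0.41), with control replicate 1 the lowest of all 6. Control replicate 1 was also the lowest library for Sdha, and without it Sdha had -0.078 and Sdhd -0.33. The median of the 4 was -0.012, or 0.25 with library totals, and their summed level of 540 to 793 CPM in the controls enclosed the 629 to 696 CPM of the LKO libraries.

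Complex III, which passes electrons from ubiquinol to cytochrome c, had 8 of 8 members below 0 and a median of -0.38. The summed level was 2381, 1956 and 2225 CPM in WT replicates 1 to 3 and 2172, 1508 and 1264 CPM in LKO replicates 1 to 3, with replicate 1 among the controls. The lowest log2 differences were those of 4 small subunits. Uqcr10 had 145, 134 and 207 CPM in the controls and 143, 105 and 69.4 CPM in the LKO libraries (-0.61, SE 0.31). Uqcrh, the hinge protein beside cytochrome c1, had 181, 224 and 243 CPM against 209, 148 and 99.9 CPM (-0.51, 0.29). In both genes replicate 1 lay among the controls and replicates 2 and 3 below them. Uqcrq and Uqcr11, the most abundant per length at 1215 and 1028 TPM, had log2 differences of -0.58 and -0.47. The core proteins Uqcrc1 and Uqcrc2 had -0.29 and -0.22. Uqcrfs1, the Rieske iron-sulphur protein that takes the electron from ubiquinol, had 141, 141 and 146 CPM in the controls and 128, 118 and 123 CPM in the LKO libraries. It was the only complex III member without overlap and had the smallest difference of the 8 (-0.21, SE 0.18), which turned to 0.05 under scaling by library totals. Its replicates lay close together in both groups.

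Complex IV, cytochrome c oxidase, had the lowest median of the 5, -0.54, with 12 of 13 tested members below 0. It also had the shortest median main transcript of the 5, 618 bases. With the trend over length and GC content removed its median was -0.15, and that of complex I, at -0.20, was the lowest. Of its tested members, the 10 widely expressed nuclear subunits were all below 0, as were 84.9% of other protein-coding genes of 601 to 800 bases. The median main transcript of the 10 is 631.5 bases. Of the 10, 4 (40.0%) lay lower without overlap. This held for 4.55% of all genes and for 14.5% of other protein-coding genes of 601 to 800 bases. The summed level of all complex IV members was 4174, 3649 and 4252 CPM in the controls and 3538, 2643 and 2129 CPM in the LKO libraries. Here LKO replicate 1 too lay below every control, although by library totals, at 3821 CPM, it lay within the control range of 3071 to 4256 CPM. Cox7c had 580, 460 and 561 CPM in the controls and 366, 340 and 294 CPM in the LKO libraries (-0.68, SE 0.23, edgeR unadjusted p 0.017). Cox6a1 had 447, 431 and 466 CPM against 343, 268 and 229 CPM (-0.68, 0.24, edgeR unadjusted p 0.020). Cox6b1, on the side of the enzyme that meets cytochrome c, had 487, 394 and 473 CPM against 356, 276 and 214 CPM (-0.68, 0.26, edgeR unadjusted p 0.029). In each of these 3 genes the highest LKO library, replicate 1, lay below the lowest control. Cox8a had 379, 394 and 425 CPM against 329, 271 and 226 CPM (-0.54, 0.23), also without overlap. Cox6c, the most abundant member of all at a mean of 1613 TPM, had 758, 518 and 637 CPM against 635, 417 and 317 CPM (-0.48, 0.31), and its groups overlapped through replicate 1.

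Several complex IV subunits, the c subunit of ATP synthase and Ndufa4 have isoform genes, and in liver 1 isoform of each complex IV pair made up nearly all of the counts. Cox4i1, among the first nuclear subunits to join the enzyme, had 498 to 657 CPM in the controls and 311 to 556 CPM in the LKO libraries (-0.51), whereas Cox4i2, the lung isoform, had 1 to 14 counts per library and was not tested. The muscle isoforms Cox6a2 and Cox8b, with 0 to 5 and 3 to 8 counts, were not tested, and Cox7b2 and Cox8c were at 0 counts in all libraries, where 3 counts, the limit that a count of 0 allows for counting error alone, would be 0.13 to 0.16 CPM. Cox6b2, the testis isoform, had 1.70, 1.31 and 0.24 CPM in the controls and 0.26, 0.62 and 0.54 CPM in the LKO libraries (-1.17, SE 0.69), the lowest log2 difference of all members and 1 that overlapped. Cox7a1, the muscle form, had 1.37 to 3.19 CPM against 1.81 to 3.75 CPM (0.22), beside 165 to 200 CPM against 106 to 194 CPM for the liver form Cox7a2 (-0.34). Cox7a2l, which helps to join complexes III and IV into supercomplexes, had 60.6 to 117 CPM against 67.2 to 98.7 CPM (-0.14). Ndufa4l2, the paralogue of Ndufa4 that is induced by hypoxia, had 1.38, 0.88 and 0.86 CPM against 1.86, 1.46 and 0.96 CPM, the highest log2 difference of all members (0.46, SE 0.40). None of the restricted isoforms set the groups apart.

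**Figure D3:**
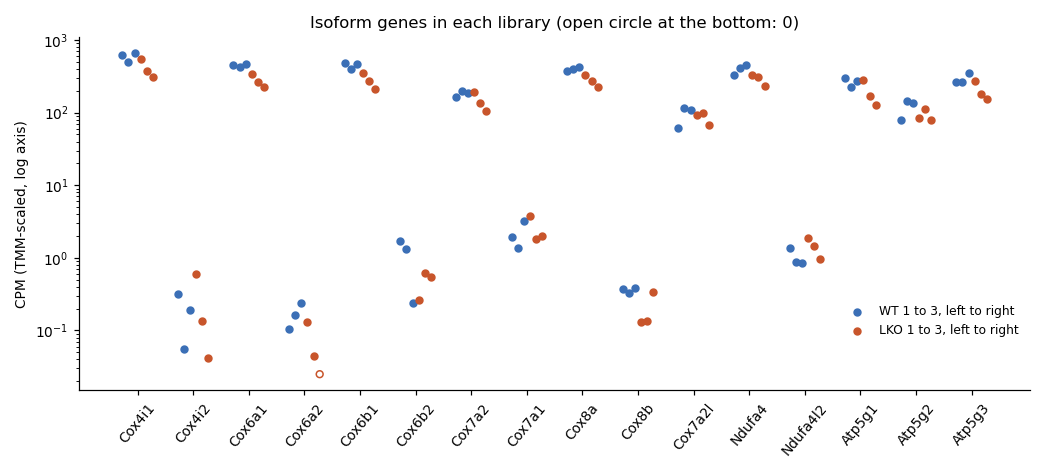
Points give the TMM-scaled CPM of each isoform gene on a log axis (y) in control (WT 1 to 3) and LKO (LKO 1 to 3) libraries, placed left to right within each gene on the x axis. Cox4i1, Cox6a1, Cox6b1, Cox7a2 and Cox8a have at least 106 CPM in every library while their restricted partners have at most 3.75 CPM, and the 3 Atp5g genes all have at least 80.0 CPM.

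ATP synthase had 15 of 17 tested members below 0 and a median of -0.42, and the exceptions were the genes of its alpha and beta subunits. The summed level was 4938, 5056 and 5318 CPM in the controls and 5158, 4063 and 3428 CPM in the LKO libraries, of which replicates 2 and 3 lay below every control. Atp5a1 had 400, 594 and 580 CPM in the controls and 516, 605 and 560 CPM in the LKO libraries (0.10, SE 0.25). Atp5b, whose subunit holds the catalytic sites, had 665, 930 and 857 CPM against 935, 918 and 823 CPM (0.13, 0.25). It was the most abundant ATP synthase gene, at a mean of 1534 TPM, and its groups overlapped almost fully. Without WT replicate 1, the lowest library for both, Atp5a1 had -0.069 and Atp5b -0.0041. Atp5c1, the rotating central stalk between them, had 350, 371 and 342 CPM against 330, 252 and 218 CPM without overlap (-0.41, 0.23).

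The c ring turns with proton flow, and its 3 genes encode the same mature peptide. Atp5g1 had 303, 225 and 273 CPM in the controls and 280, 171 and 126 CPM in the LKO libraries (-0.47, SE 0.31). Atp5g2 had 80.4, 144 and 138 CPM against 83.3, 112 and 80.0 CPM (-0.40, 0.27), and Atp5g3 had 260, 266 and 349 CPM against 271, 182 and 154 CPM (-0.53, 0.27). Replicate 1 lay within the control range in all 3. Of the membrane subunits, which help to form dimers, Atp5l (subunit g) had 246, 284 and 353 CPM against 234, 217 and 172 CPM without overlap (-0.50, 0.24). Atp5j2 (subunit f) had -0.60, with 342 to 437 CPM in the controls and 375, 223 and 188 CPM in the LKO libraries. Atp5mpl, a small proteolipid of the membrane part, had -0.44. The 4 subunits of the peripheral stalk, which holds the head still, had a median of -0.34. Of these Atp5h had 427, 339 and 376 CPM against 411, 251 and 179 CPM (-0.44, 0.32). Atp5j, another stalk subunit and the third ATP synthase member without overlap, is named after its values were seen (-0.43). The inhibitor of the enzyme's reverse reaction, Atpif1, which the symbol rule does not hold, had 39.7, 33.6 and 48.4 CPM against 38.1, 28.2 and 20.0 CPM (-0.49, 0.27). Usmg5, a further membrane subunit, had -0.51.

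The 13 subunits encoded in mitochondrial DNA did not follow the nuclear members. Their summed level was 82204, 90777 and 72090 CPM in WT replicates 1 to 3 and 70089, 85977 and 89257 CPM in LKO replicates 1 to 3, a ratio of group means of 1.00, which was 1.21 with library totals and 1.62 in deposited TPM. The nuclear members summed to 17149 ± 835 CPM in the controls and 13039 ± 3168 CPM in the LKO libraries (mean ± SD, 3 libraries each), a ratio of 0.76. The ranges of the nuclear sums overlapped through replicate 1, at 16494 CPM, while replicates 2 and 3 had 12353 and 10271 CPM. Of the 13 mitochondrial genes 5 were below 0, the median was 0.14 and the smallest edgeR adjusted p was 0.85. Their values ran apart within libraries: mt-Co2, a catalytic subunit of complex IV, had 11886 CPM in LKO replicate 1 and 498 to 2715 CPM in the others, and mt-Nd1, of complex I, had 8778 to 11088 CPM in the controls and 5672 to 7883 CPM in the LKO libraries. In deposited TPM the ratio of nuclear to mitochondrially encoded subunit mRNA was 0.336, 0.241 and 0.358 in the controls and 0.292, 0.156 and 0.121 in the LKO libraries. LKO replicates 2 and 3 had the lowest ratios. The mitochondrially encoded part alone summed to 89485, 106726 and 95655 TPM in WT replicates 1 to 3. In LKO replicates 1 to 3 it summed to 130300, 162810 and 179196 TPM, so each LKO library lay above every control. The nuclear part ran from 25667 to 34232 TPM in the controls and from 21706 to 38062 TPM in the LKO libraries.

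**Figure D4:**
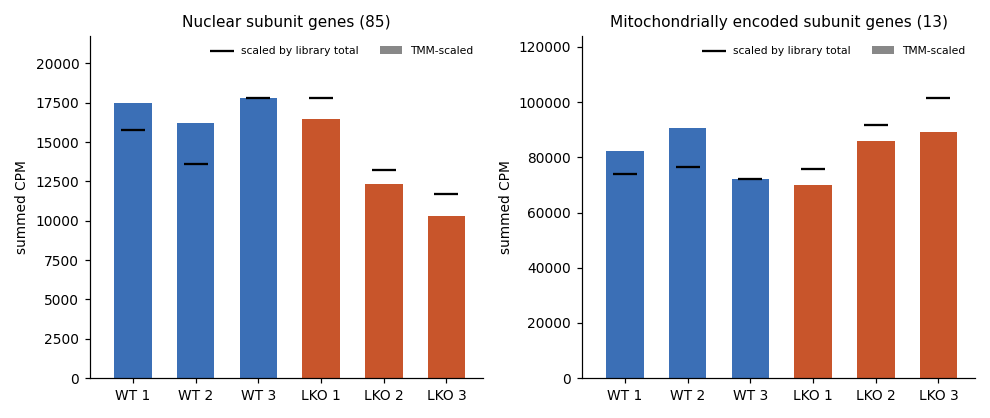
Bars give the summed TMM-scaled CPM of the 85 nuclear members (left) and of the 13 mitochondrially encoded subunits (right) in each control (WT) and LKO library, and black dashes give the same sums scaled by library total only. The nuclear bars of LKO 2 and LKO 3, at 12353 and 10271 CPM, are the lowest, and the mitochondrial bars are not ordered by group.

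The sums depended on the scaling. Scaled by library totals alone, the log2 median of all genes moved from 0.01 to 0.27 and that of the members moved with it, so that the members' median minus that of all genes was -0.46 under both. The count of members below 0 was then 59 of 79, where 21.1% of all genes were below 0, and the single member without overlap lay higher. No member then lay below every control, against 0.48% of all genes. The medians of complexes I, III and IV and of ATP synthase were then -0.19, -0.13, -0.28 and -0.17. The ratio of the summed nuclear members was 0.91 by library totals and 0.95 in deposited TPM.

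Transcript length moved with the result. Short transcripts lay lower than long ones in LKO replicates 2 and 3 across the whole transcriptome, but not in LKO replicate 1, and 47 of the 79 tested members have a main transcript of up to 800 bases. Members of up to 600 bases had a median log2 difference of -0.51 and other protein-coding genes of that length -0.41. From 601 to 800 bases the medians were -0.45 and -0.39, from 801 to 1500 bases -0.41 and -0.23, and over 1500 bases, with 13 members, -0.17 and 0.07. The shares below 0 in these 4 classes were 96.6%, 100%, 89.5% and 76.9% of members and 86.1%, 84.9%, 77.2% and 40.7% of other genes. The shares without overlap and lower were 24.1%, 11.1%, 21.1% and 0.0% of members and 12.98%, 14.5%, 11.5% and 2.68% of other genes. The members' median thus lay below that of other genes in each of the 4 classes, by less than in the comparison with all genes. Over 1500 bases the lengths were unlike, with median main transcripts of 1698 bases in members and 3196 bases in other genes. From 801 to 1500 bases these medians were 1046 and 1191.5 bases. Other protein-coding genes of 1601 to 2200 bases had a median log2 difference of -0.059. Across genes, which are not independent replicates, the Spearman correlation of the difference with length was 0.47 over the 79 members and 0.42 over 12175 other protein-coding genes. All of these share the same 6 libraries. With each library's trend over length and GC content removed, the members' median was -0.15 and 57 of 79 lay below 0, where 53.8% of all genes did. Then 8 members lay lower without overlap (5.03% of all genes) and 2 higher (3.4%), and 1, which lay higher, had an unadjusted edgeR p under 0.05.

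**Figure D5:**
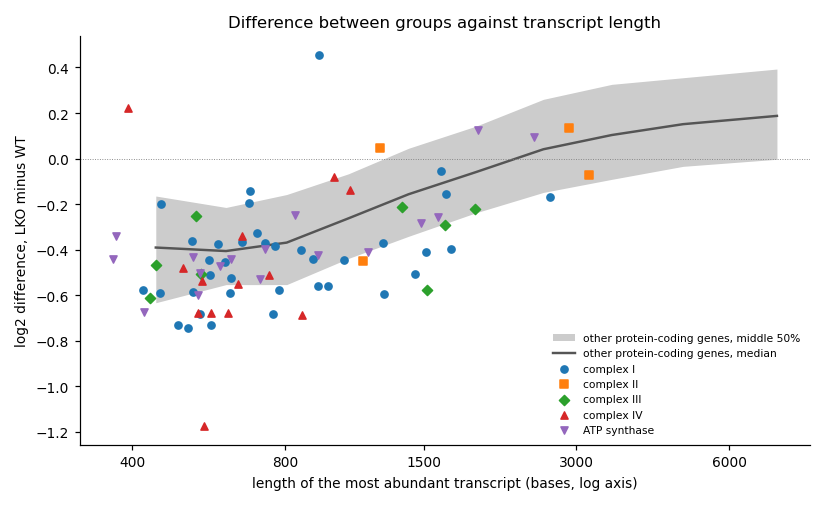
Each marker is 1 tested member, with the length of its most abundant transcript in bases on a log axis (x) and its log2 difference, LKO minus control (y). The line and band are the median and the middle 50% of other protein-coding genes, and most members lie at or below a line that is itself below 0 for short transcripts.

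Members above 0 included some with long transcripts. Atp5a1, Atp5b and Sdha, at 0.10, 0.13 and 0.14, have main transcripts of 2471, 1916 and 2900 bases. With the trend removed they had 0.05, 0.16 and 0.06. In the same fit Cox7c had -0.36, Ndufa9 -0.41, Ndufa7 -0.10 and Cox8a 0.0089, and none of these was called.

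Markers of other cells were compared beside these values. All 5 red blood cell genes lay below 0, with a median of -0.97 and summed levels of 727 to 1678 CPM in the controls and 438 to 1106 CPM in the LKO libraries, and none was at 0. All 10 Kupffer cell and macrophage genes lay below 0, with a median of -0.61, and none was at 0. They summed to 255, 376 and 800 CPM in WT replicates 1 to 3 and 364, 256 and 314 CPM in LKO replicates 1 to 3. Both the highest sum, in control replicate 3, and the lowest, in control replicate 1, were thus those of controls. Both tested neutrophil genes, S100a8 and S100a9, lay below 0 (-1.44 and -1.33). All 5 neutrophil markers summed to 5.48, 2.79 and 13.3 CPM in the controls and 4.96, 1.95 and 1.68 CPM in the LKO libraries, lowest in replicates 2 and 3, with Ly6g at 0 in both of these. The red blood cell and tested neutrophil markers are short, with median main transcripts of 628 and 499 bases. Of other protein-coding genes, 86.1% of those up to 600 bases and 84.9% from 601 to 800 bases also lay below 0. The part of these cells in the members' values was not tested. Of the other liver cells, 2 of 7 endothelial, 3 of 7 stellate and 3 of 4 cholangiocyte markers tested lay below 0, with medians of 0.28, 0.0096 and -0.47. Of the B and T cell markers tested 2 of 5 lay below 0 (median 0.19), the 1 adipocyte marker tested had 0.50 and the 1 pancreatic acinar marker -0.19. Skeletal muscle markers summed to 0.38 to 1.33 CPM in the controls and 0.38 to 0.65 CPM in the LKO libraries, with Myh1 at 0, and heart markers to 1.00 to 3.99 CPM and 0.40 to 1.77 CPM, with Myh6 at 0.

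Genes that build the complexes lay below 0 in most cases, with a smallest edgeR adjusted p of 0.85. Of the tested assembly factors, 13 of 16 for complex I lay below 0 (median -0.25), 4 of 4 for complex II (-0.23) and 6 of 6 for complex III (-0.36). For complex IV 19 of 24 did (-0.30) and for ATP synthase 4 of 5 (-0.32). Their median main transcripts ran from 969 bases for ATP synthase to 2257.5 bases for complex II. Of all genes 48.4% lay below 0, as did 77.2% of other protein-coding genes of 801 to 1500 bases and 40.7% of longer ones. Fmc1, a factor for ATP synthase assembly, had 23.5, 21.1 and 27.1 CPM in the controls and 18.6, 13.7 and 8.89 CPM in the LKO libraries, without overlap (-0.80, SE 0.28, edgeR unadjusted p 0.020). Sdhaf4, which assembles complex II, had -0.52 and Cox16, for complex IV, had -0.47, also without overlap, and no other assembly factor had an unadjusted edgeR p under 0.05. Outside the symbol rule, the complex I acyl carrier subunit Ndufab1 had -0.49, the electron carrier cytochrome c (Cycs) -0.38 and cytochrome c1 (Cyc1) -0.01. Of the 6 subunits and carriers in that list 5 lay below 0, and the values ran from -0.51 for Etfb to 0.39 for Etfdh.

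The regulators of respiratory genes showed no common direction, with 7 of 14 below 0 and a median of 0.0069, and their smallest edgeR adjusted p was 0.85. Ppargc1a, the coactivator that drives mitochondrial biogenesis, had 4.05, 3.23 and 6.10 CPM in the controls and 5.01, 7.88 and 5.95 CPM in the LKO libraries (0.49, SE 0.31). Nrf1 had 0.19, Gabpa 0.32, Yy1 0.13, Esrra -0.08 and Tfam, the packaging factor of mitochondrial DNA, -0.25. All of these overlapped between groups. Ppargc1a had the highest log2 difference of the 14 and Ppargc1b the lowest (-0.50). Of the 14, 1 (7.14%) lay lower without overlap, as did 4.55% of all genes, and 0 lay higher. The annotated exons of Gabpa overlap those of the ATP synthase gene Atp5j on the opposite strand.

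Counting could blur some members. Of the 85, 30 share exon bases with another gene, 24 of them only with a gene on the opposite strand, and no source used here says whether strand was used in counting. Among the 51 tested members that share none, 47 lay below 0, the median was -0.44 and 10 (19.6%) lay lower without overlap. Lower without overlap were 4.55% of all genes and 14.5% of other protein-coding genes of 601 to 800 bases. The median main transcript of the 51 is 683 bases. A second gene with the symbol Atp5o had 1 count in 1 library.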

How the data were processed

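Poly-A liver RNA of 6 mice, 3 per group, was sequenced as read pairs, per the labels' protocols. Each deposited file gives estimated counts and TPM for 115221 transcripts of 1 animal, and per the file headers its columns are laid out as Salmon writes them. Estimated counts were deposited without any scaling, and the deposited TPM values are scaled by the authors to effective length and to 1 total per library. RSEM 1.2.8, Bowtie2 2.2.5 and DESeq are named, without a role, per the submitters' processing notes. The effective lengths of LKO replicate 1 were shortened by exactly 250 bases, a fixed value, whereas those of the rest were shortened by 242 to 262.

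Estimated counts were summed over GENCODE M21 genes (GRCm38, 113664 transcripts matched without version) and rounded. After filterByExpr and TMM scaling, 12497 genes entered a two-sided edgeR quasi-likelihood test (edgeR 4.0.16, R 4.3.3), Benjamini-Hochberg adjusted, threshold 0.05. DESeq2 1.42.0 and limma 3.58.1 (voom) were alternatives, as were other scalings and filters, an effective length offset, a loess trend over length and GC content (span 0.5), a replicate block and leaving out libraries. The tests were checked on simulated data. The depth of 20899135 to 21750007 counts per library limits the precision of low isoforms, and 3 libraries per group limit that of all tests.

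The members, marker lists and other pathway lists were chosen with earlier results of these data known. Genes described are the 4 Sdh genes and, in each other complex, the 4 with the smallest p and the 2 with the highest TPM. The core subunits, the isoform sets and the 2 highest log2 differences are described as well. Genes named from the other lists are examples and not only those with the smallest p. The result of 1 core subunit is not reported here, though it is in the counts and medians. Promoters are from RefSeq, GRCm38.p6. Positions are 1-based.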

Additional observations from a re-analysis of the deposited data

How the results depend on the processing

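No member passed the threshold under any alternative run. Over all genes, DESeq2 called 11, edgeR called 9 with LKO replicates 2 and 3 both left out, where the lone LKO library is assumed to vary like the controls, and 0 to 3 with 1 library left out, the 3 being without LKO replicate 1. With the length and GC trend removed the median log2 difference was -0.15 over all members. It was -0.20 in complex I, -0.056 in complex II, -0.14 in complex III, -0.15 in complex IV and -0.14 in ATP synthase. With LKO replicates 2 and 3 both left out it was -0.054 over all members, -0.025 in complex I, -0.060 in complex III, -0.075 in complex IV and -0.075 in ATP synthase. Library totals put complex II at 0.25 and left 1 member without overlap, which lay higher, and the summed ratio in deposited TPM was 1.15 for complex II and 0.88 for complex IV. With LKO replicates 2 and 3 left out 25 members were without overlap, 16 lower and 9 higher, 31.6% against 35.3% of all genes. With 1 library left out there were 14 to 60. There were 60 without LKO replicate 1 (75.9% against 35.8% of all genes). Without control replicates 1, 2 and 3 there were 27 (34.2% against 28.2%), 30 (38.0% against 17.8%) and 15 (19.0% against 17.2%). There were 14 both without LKO replicate 2 (17.7% against 12.6%) and without LKO replicate 3 (17.7% against 13.9%).

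Replicate numbers are shared between groups in the labels. The correlations of deviations between same-numbered libraries were 0.20, 0.28 and -0.15. With 3 libraries per group these values cannot show whether the numbers pair the animals. The replicate block called 0 genes and gave a members' median of -0.47. Of the same-numbered libraries, not every one correlated best with its own number. With the block and the length and GC trend removed together, the medians were -0.18 in complex I, -0.17 in complex IV and -0.15 in ATP synthase. They were -0.042 in complex II and -0.15 in complex III.

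Among 44 tested genes described, 37 of 835 values turned sign, all without a call. With LKO replicates 2 and 3 both left out these were Atp5a1 (-0.030), Atp5g1 (0.062), Atp5h (0.11), Ndufs3 (0.097), Ndufs8 (0.061), Ndufv1 (0.097), Sdha (-0.15), Sdhd (-0.28), Uqcr11 (0.099), Uqcrc1 (0.060), Uqcrq (0.11) and Cox7a2 (0.069). With the effective length offset these were Atp5b (-0.13) and Sdhc (0.047). With the length and GC trend removed these were Atp5g2 (0.068), Uqcr11 (0.064), Cox7a2l (0.11) and Cox8a (0.0089). With that trend removed and the replicate block these were Atp5g2 (0.056), Uqcr11 (0.056) and Cox7a2l (0.12). With library totals these were Ndufs1 (0.092), Ndufv1 (0.099), Sdhc (0.19), Uqcrc2 (0.043), Uqcrfs1 (0.049) and Cox7a2l (0.12). With voom sample weights these were Cox7a1 (-0.18). With 1 library left out, those that turned ranged from -0.069 to 0.19 for Atp5a1, from -0.0041 to 0.23 for Atp5b, from -0.078 to 0.33 for Sdha, from -0.33 to 0.36 for Sdhd, from -0.18 to 0.62 for Cox7a1 and from -0.38 to 0.040 for Cox7a2l. The cause of these changes was not tested. Isoforms with at most 3.75 CPM are limited by depth, and members sharing exons by the counting; leaving the latter out, an alternative chosen after seeing the data, gave a median of -0.44.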
